A study of Mus musculus with 6 samples.

Results

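The genes described here carry the names of families that build, break down and read cyclic AMP (cAMP). They were measured in RNA from a purification aimed at mouse cortical pyramidal cells. Some of them do not act on cAMP, as stated below. The genes were chosen by name: every gene whose single symbol in the array's annotation begins with Adcy, Pde, Prkac, Prkar, Akap, Creb or Crtc followed by the expected letter or number, together with Crem. The name pattern found 178 probe sets of 68 genes. For each gene the probe set with the highest mean over the 6 arrays stood for it, and the gene was kept if either group mean reached an intensity of 50. That left 51 genes of the 10830 kept on the whole array: 8 of 10 adenylyl cyclases, 15 of 22 phosphodiesterases, 3 of 3 other genes named Pde, 6 of 6 subunits of cAMP-dependent protein kinase (PKA), 13 of 16 A-kinase anchoring proteins (AKAPs), 4 of 8 CREB and CREM factors and 2 of 3 CREB co-activators.

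The RNA came from the cortex of Glt25d2 bacTRAP mice of line DU9, which had been bred from FVB onto C57BL/6 for 3 to 5 generations. The transgene expresses a tagged ribosomal protein from the Glt25d2 gene (current symbol Colgalt2), which is active in layer 5 pyramidal cells, and messages are recovered on the tagged ribosomes (TRAP, for translating ribosome affinity purification). All mice carried the transgene. Treated mice drank fluoxetine, a serotonin reuptake inhibitor used as an antidepressant, at 0.167 mg/ml in 1% saccharine, and controls drank 1% saccharine, for 15 to 18 days. There were 3 arrays per group, described as independent purifications, and the labels used here give neither the mice per purification nor their age or sex. The groups follow the sample titles, sources and treatment fields, but the description of every sample names the opposite treatment. The arrays are therefore called fluoxetine-titled and vehicle-titled, and the sign of every difference below would turn if the descriptions were right.

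The arrays' median intensities were 23.0 to 23.4, and 41.4% to 41.8% of probe sets reached 50. The driver gene Colgalt2 read 986, 709 and 719 on fluoxetine-titled arrays 1 to 3 and 891, 828 and 918 on vehicle-titled arrays 1 to 3. All 14 measured markers of layer 5 projection neurons were kept, but so were 15 of 15 astrocyte markers, 13 of 14 interneuron markers and 10 of 11 measured oligodendrocyte markers, so messages known from other cell types were present too. In such pooled RNA, fewer cells of a type and less RNA per cell cannot be told apart. Over all kept probe sets, arrays that share a replicate number deviated together (correlations of their deviations from the group means 0.74, 0.60 and 0.50). The number is treated below as a pair. Over the members alone these correlations were 0.746, 0.292 and 0.580. For pair 2 that was hardly above the 0.286 of fluoxetine-titled array 3 with vehicle-titled array 2. A log2 difference is the mean of the fluoxetine-titled minus the mean of the vehicle-titled arrays, with its standard error (SE) from limma and n = 3 per group. Intensities of different probe sets share no scale, so levels are compared between arrays and not between genes.

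In the cAMP pathway, receptors coupled to the stimulatory G protein activate adenylyl cyclases, which make cAMP from ATP, and phosphodiesterases hydrolyse it. Cyclic AMP releases the catalytic subunits of PKA from its regulatory subunits, and AKAPs hold the kinase at particular places in the cell. PKA phosphorylates CREB, which then activates genes that carry a cAMP response element, with CRTC proteins as co-activators. In pyramidal neurons the pathway is known for its part in synaptic plasticity, and serotonin receptors act on it in both directions.

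No member passed the test. Across the array 0 of 19073 probe sets (0%) reached a Benjamini-Hochberg adjusted p under 0.05 in limma, and the smallest adjusted p was 1.00 (0.993 with the replicate number as a block). At an unadjusted p under 0.05, limma called 121 probe sets, or 767 with the block. Counted by gene, 1 of 51 members (1.96%) was past that value with higher levels on the fluoxetine-titled arrays, namely Pde7a, against 0.36% of all genes, and 0 members were past it in the lower direction, against 0.231%. With the replicate block 5 members (9.8%) were past it and higher, Pde7a, Pde3b, Akap13, Akap12 and Akap2, against 2.05% of all genes, and 0 members were lower, against 1.36%. The unadjusted counts are descriptions.

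Groups without overlap were seen for 3 members, Pde7a, Akap12 and Akap13, all with the fluoxetine-titled arrays above (5.88%, against 1.63% of all genes). No member had all fluoxetine-titled arrays below, against 1.98% of all genes. With 3 arrays against 3, the smallest two-sided p of an exact permutation test is 0.1. Higher values in all 3 pairs were seen for 7 members (13.7%, against 10.9% of all genes), and lower values in all 3 pairs for 10 (19.6%, against 13.1%). The 10 lower ones were Adcy3, Adcy7, Pde1a, Pde2a, Pde7b, Prkacb, Akap6, Akap8l, Akap10 and Akap11, with differences of -0.25 to -0.06, so they were small as well as shared in sign.

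The median log2 difference over the 51 members was -0.036, and -0.0068 over all genes. Most families sat close to 0. The AKAPs had a median of 0.073 with 9 of 13 positive, the CREB and CREM factors 0.043 with 2 of 4, the PKA subunits -0.026 with 2 of 6, the adenylyl cyclases -0.036 with 2 of 8, the CREB co-activators -0.046 with 1 of 2, the phosphodiesterases -0.064 with 6 of 15, and the other genes named Pde -0.13 with 0 of 3. Among all genes 47.8% were positive. Several of these signs turned under another setting. The CREB and CREM median, which counts Creb5, kept through its fluoxetine-titled mean alone, was -0.067 when both group means had to reach 50 and -0.059 with no filter. The AKAP median was -0.013 with all kept probe sets of a gene averaged, the PKA median 0.0044 after quantile normalization and the co-activator median 0.013 with no filter. Every member differed by less than 1.5-fold between the group means, and for 46 of 51 (90.2%) the 95% confidence interval stayed within 2-fold in both directions, against 96.0% of all genes. The median SE was 0.19 for members and 0.17 for all genes.

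**Figure D1:**
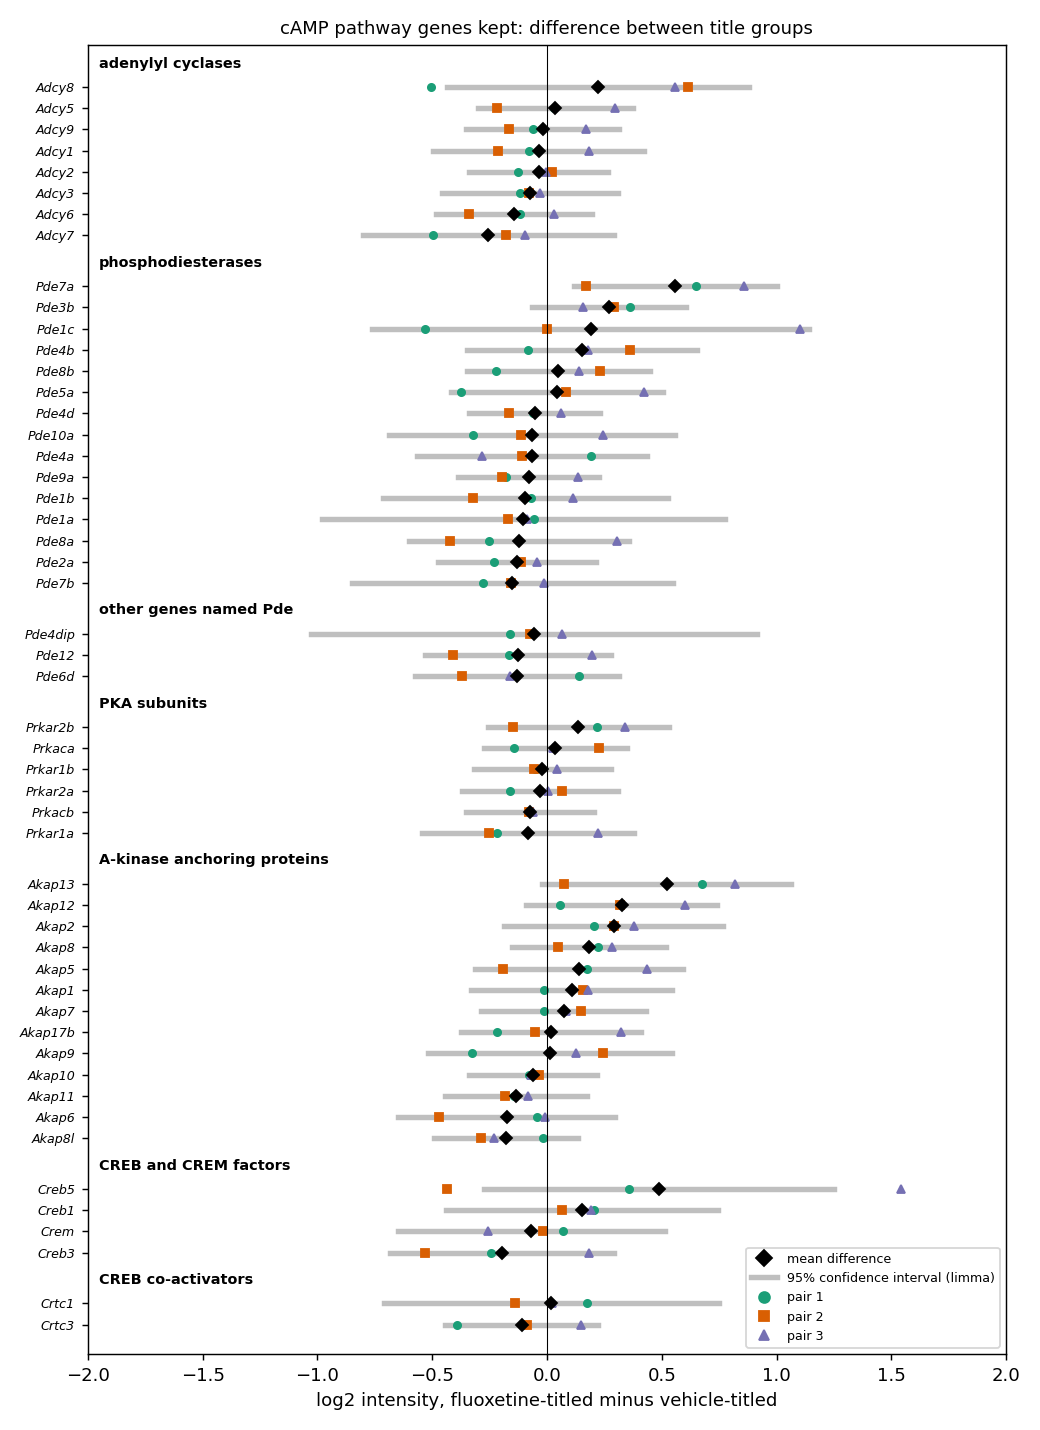
Log2 difference (fluoxetine-titled minus vehicle-titled) of each of the 51 genes by family: diamonds are the mean differences, grey bars the 95% confidence intervals from limma, and the circle, square and triangle the differences within pairs 1, 2 and 3. Pde7a at 0.56 lies farthest from 0, and its interval is the only one of the 51 that does not cross 0.

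Among the adenylyl cyclases, 0 of 8 passed the test, and none had groups that did not overlap. Adcy1 and Adcy8 are the cyclases that calcium and calmodulin stimulate. Adcy8 read 178, 368 and 358 on fluoxetine-titled arrays 1 to 3 and 253, 241 and 243 on vehicle-titled arrays 1 to 3. The vehicle-titled arrays were nearly level, while fluoxetine-titled array 1 lay below all of them and the others above. Its difference was 0.22 ± 0.28, with -0.50, 0.61 and 0.56 in pairs 1, 2 and 3, and it was 0.59 without pair 1 and 0.027 without pair 2. Adcy1 read 3136, 3486 and 4801 against 3314, 4038 and 4224, lowest on both arrays numbered 1, with a difference of -0.036 ± 0.20.

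Adcy7, a cyclase that G protein beta-gamma subunits stimulate, gave the lowest difference of all members. It read 122, 99.2 and 92.3 on the fluoxetine-titled and 172, 112 and 98.4 on the vehicle-titled arrays. It was lower in every pair (-0.49, -0.18 and -0.094), yet the groups overlapped, because array 1 was the highest in both. The difference was -0.25 ± 0.23, but -0.018 without vehicle-titled array 1 and -0.42 without vehicle-titled array 3. Adcy3, the cyclase of olfactory neurons and of neuronal cilia, had the same shape at smaller size, 536, 457 and 425 against 580.4, 483 and 434, with -0.074 ± 0.16. A pair of further Adcy3 probe sets also gave negative values, -0.22 and -0.18.

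Adcy5 and Adcy6, the cyclases that calcium inhibits, read 1322, 1321 and 1516 against 1292, 1535 and 1236 for Adcy5 (difference 0.037 ± 0.14) and 174, 181 and 212 against 189, 229.8 and 207 for Adcy6 (-0.14 ± 0.14). Both sets of groups overlapped. Adcy2, like Adcy7 a target of beta-gamma subunits, was flat at 1987, 2287 and 2352 against 2171, 2255 and 2356 (-0.036 ± 0.13), and Adcy9, a widely expressed cyclase, read 1469.6, 1645 and 1767 against 1535, 1843 and 1571 (-0.019 ± 0.14). Adcy4 and Adcy10, the bicarbonate-sensitive soluble cyclase, did not reach the intensity minimum.

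Of the phosphodiesterases, 0 of 15 passed the test. Pde7a, which hydrolyses cAMP and is insensitive to rolipram, gave the largest difference of any member. Its fluoxetine-titled arrays read 329, 333 and 441 and its vehicle-titled arrays 209, 296 and 244. All fluoxetine-titled arrays lay above all vehicle-titled ones, with the narrowest step in pair 2. The difference was 0.56 ± 0.19 (95% confidence interval 0.12 to 1.00), a 1.47-fold ratio with an adjusted p = 1.00 in limma, and the pairs gave 0.65, 0.17 and 0.86. Leaving out 1 array or pair at a time gave 0.41 to 0.75, and the unadjusted p was no longer under 0.05 without fluoxetine-titled array 3, vehicle-titled array 1, vehicle-titled array 3 or pair 3.

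The other Pde7a probe sets did not share this difference. The most intense of them read 242, 237 and 161 against 281, 261 and 193, lower on the fluoxetine-titled array in every pair, with -0.21 ± 0.22. The remaining ones gave 0.03 and -0.029. Averaged over its 4 kept probe sets, Pde7a had a difference of 0.088. Its paralog Pde7b read 809.7, 663 and 482 against 983, 739.8 and 485, highest on the arrays numbered 1, with -0.15 ± 0.30.

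Pde3b, the cAMP-hydrolysing enzyme that cGMP inhibits, read 105, 94.0 and 81.8 against 82.0, 76.7 and 73.3. Each fluoxetine-titled array was above the vehicle-titled array of its own number, but array 3 of the first group just failed to clear array 1 of the second. The difference was 0.27 ± 0.14, the pairs gave 0.36, 0.29 and 0.16, and only 1 probe set was kept. Pde1c, a calcium- and calmodulin-activated enzyme, lay just inside the intensity minimum, with a fluoxetine-titled mean of 50.1 and a vehicle-titled mean of 49.2. It read 50.5, 52.9 and 47.1 against 72.9, 52.9 and 21.9: level on the fluoxetine-titled arrays and spread from the lowest to the highest value on the vehicle-titled ones. Its difference of 0.19 ± 0.40 turned to -0.31 without vehicle-titled array 3.

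The other phosphodiesterases differed by at most 0.15 in either direction. Positive values were given by Pde4b (0.15 ± 0.21), a cAMP-specific and rolipram-sensitive enzyme, by Pde8b (0.05 ± 0.17), a high-affinity cAMP enzyme, and by Pde5a (0.043 ± 0.20), the cGMP-specific target of sildenafil. Among the negative ones, Pde4a gave -0.066 ± 0.21 and Pde4d -0.054 ± 0.12, both relatives of Pde4b. The calcium-activated enzymes Pde1a and Pde1b gave -0.10 ± 0.37 and -0.094 ± 0.26. Pde2a, which cGMP stimulates, gave -0.13 ± 0.15. Pde8a gave -0.12 ± 0.20, the cGMP-specific Pde9a -0.079 ± 0.13, and Pde10a, a dual-substrate enzyme abundant in striatal medium spiny neurons, -0.064 ± 0.26. The intensity minimum was not reached by Pde3a, Pde11a or the photoreceptor genes Pde6a, Pde6b, Pde6c, Pde6g and Pde6h.

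The 3 other genes named Pde do not hydrolyse cyclic nucleotides. Pde4dip (myomegalin, a scaffold of the Golgi and centrosome that binds PDE4D) gave -0.056 ± 0.41, Pde6d (a carrier of prenylated proteins) -0.13 ± 0.19 and Pde12 (a mitochondrial enzyme that trims poly(A) tails) -0.13 ± 0.17. All 3 were negative with the chosen probe set, and none passed the test. Both further Pde4dip probe sets were positive (0.22 and 0.26), and those of Pde12 gave 0.10 and -0.19.

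All 6 PKA subunits were measured, 0 passed the test, and their differences lay between -0.082 and 0.14. The catalytic subunit Prkaca read 15415, 16490.1 and 15138 against 17034, 14070.2 and 14861, a difference of 0.037 ± 0.13. A further Prkaca probe set gave -0.069 ± 0.12. The other catalytic subunit, Prkacb, read 5748, 6202 and 5924 against 6076, 6548 and 6176, slightly lower in every pair (-0.08, -0.078 and -0.06), with -0.073 ± 0.12. Both sets of groups overlapped, and both intervals stayed within 1.5-fold. The regulatory subunit Prkar1b, the neuronal type I form, was level at 39118, 43509 and 44830.1 against 40579, 45238 and 43434 (-0.021 ± 0.13).

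Prkar1a, the widespread type I form, read 3879.6, 2891 and 3494 against 4512, 3445 and 2992 (-0.082 ± 0.20), highest on the arrays numbered 1. Type II subunit Prkar2a read 1258, 1237 and 1456 against 1408, 1181 and 1453 (-0.031 ± 0.14). Prkar2b, the type II form common in brain, read 3940.0, 3123 and 3311 against 3387, 3459 and 2617 and gave the largest difference of the family, 0.14 ± 0.17. It was 0.0076 without vehicle-titled array 3 and 0.28 without pair 2. Its pairs disagreed in sign (0.22, -0.15 and 0.34), and its further probe sets gave -0.051 and 0.03.

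**Figure D2:**
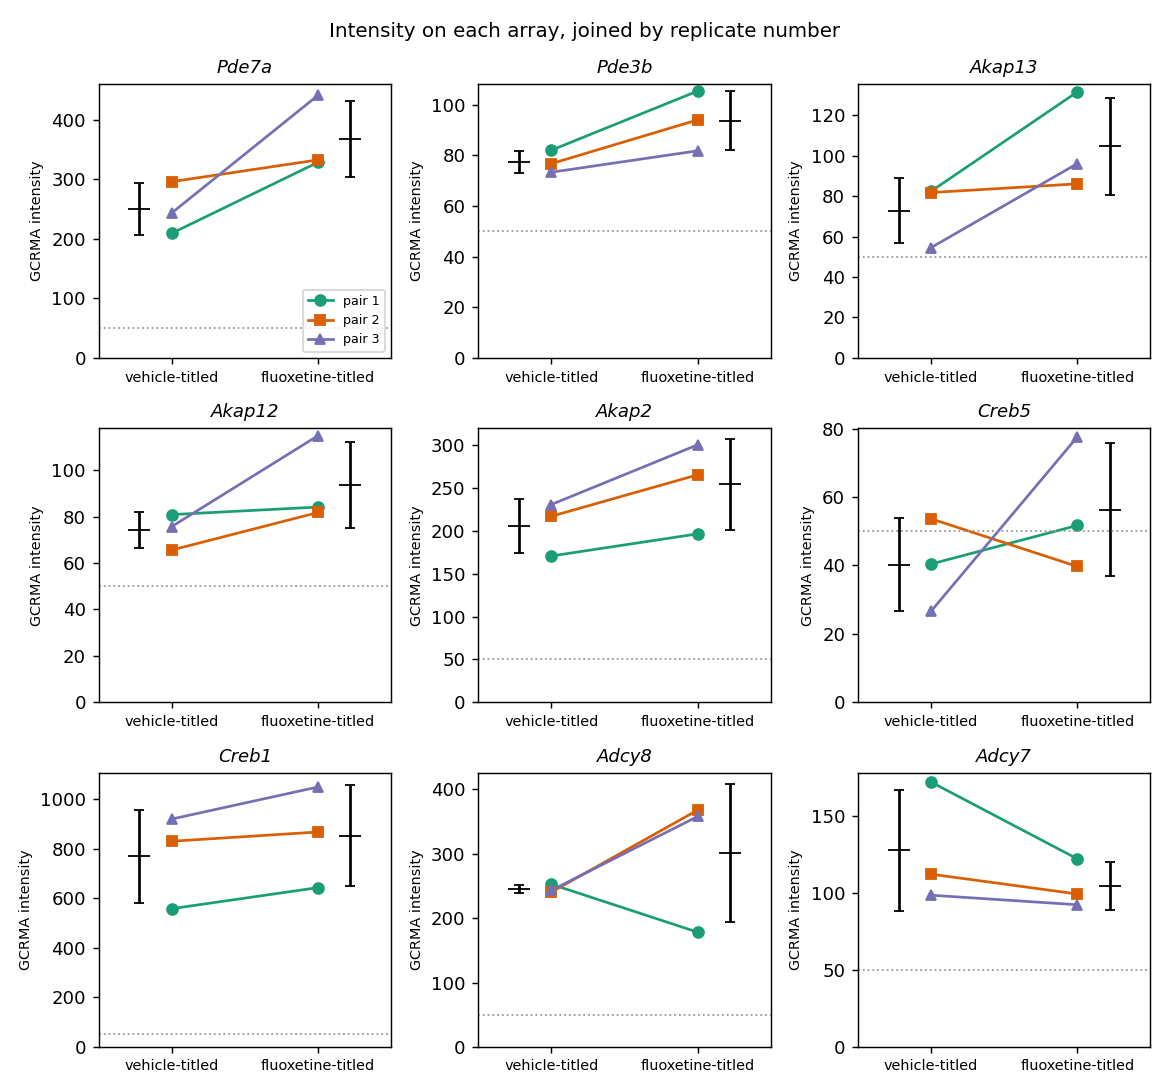
GCRMA intensity (linear axis from 0) of 9 members on the vehicle-titled and fluoxetine-titled arrays, with lines joining arrays of equal replicate number, black bars for the mean ± SD of each group (n = 3) and a dotted line at the intensity minimum of 50. For Pde7a every fluoxetine-titled point (329, 333 and 441) lies above every vehicle-titled one (209, 296 and 244), while the groups of Creb1, Adcy8 and Adcy7 overlap.

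The AKAPs held the most members with 1 sign in all 3 pairs, in both directions, though 0 of 13 passed the test. Higher in all 3 pairs were 4 of 13 (30.8%, against 10.9% of all genes). Lower in all 3 were also 4 of 13 (30.8%, against 13.1%). Akap13, an anchor that is also an activator of the GTPase RhoA, read 132, 86.1 and 96.1 on the fluoxetine-titled and 82.4, 81.7 and 54.5 on the vehicle-titled arrays. The groups did not overlap, but array 2 differed little between them. The difference was 0.52 ± 0.23 (95% confidence interval -0.02 to 1.06), and 0.33 without vehicle-titled array 3, its lowest value. Akap12 (gravin), a scaffold at the plasma membrane, read 84.1, 81.7 and 115 against 80.8, 65.6 and 75.7. The groups were separated by a narrow gap and fluoxetine-titled array 3 stood apart, so that the difference of 0.33 ± 0.18 was 0.17 without it.

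Akap2, an anchor bound to the actin cytoskeleton whose symbol RefSeq now lists as a synonym of Pakap, read 196, 265 and 300.2 against 171, 217 and 231. The arrays numbered 1 were lowest in both groups, and the groups overlapped. The difference was 0.29 ± 0.20, positive in every pair (0.20, 0.29 and 0.38), and 0.16 without fluoxetine-titled array 3, 0.16 without vehicle-titled array 1 and 0.47 without fluoxetine-titled array 1. A second probe set gave -0.092 ± 0.21, and the mean of both was 0.10. Akap8, a nuclear anchor, was also positive in every pair, with 0.18 ± 0.14 and a further probe set at 0.0051.

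Smaller positive values were found for Akap5 (0.14 ± 0.19), the anchor of the postsynaptic density, Akap1 (0.11 ± 0.19), the anchor of the outer mitochondrial membrane, Akap7 (0.073 ± 0.15), Akap17b (0.018 ± 0.17) and Akap9 (0.015 ± 0.23), a Golgi and centrosome scaffold. Negative in all 3 pairs were Akap6 (-0.18 ± 0.20), an anchor of the nuclear envelope, Akap8l (-0.18 ± 0.13), a nuclear relative of Akap8, Akap11 (-0.14 ± 0.13) and Akap10 (-0.06 ± 0.12). Akap3 and Akap4, anchors of the sperm flagellum, and Akap14 did not reach the intensity minimum.

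None of the 4 CREB and CREM factors kept passed the test. Creb1, the main CREB gene of neurons, read 643, 868 and 1050.0 against 558, 831 and 920.4. It was lowest on the arrays numbered 1 and the groups overlapped throughout. The difference was 0.15 ± 0.25, positive in every pair (0.20, 0.064 and 0.19), and its further probe sets gave 0.10 and 0.12. Creb1 turned to -0.063 without vehicle-titled array 1.

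Crem, whose products include the inducible repressor ICER, read 407, 246 and 261 against 387, 249 and 311, highest on both arrays numbered 1, with -0.067 ± 0.25. Creb3, a factor tethered to the endoplasmic reticulum, read 2593, 1728 and 2629 against 3070.2, 2499 and 2314 with -0.20 ± 0.21, and both of its further probe sets were negative too (-0.20 and -0.048). Without fluoxetine-titled array 2 it gave 0.0014. Creb5, a relative of ATF2, was close to the intensity minimum, with a fluoxetine-titled mean of 56.3. It read 51.7, 39.7 and 77.6 against 40.4, 53.6 and 26.6. The highest and the lowest value both came from pair 3, and pair 2 ran the other way. Its difference of 0.49 ± 0.32 (pairs 0.36, -0.43 and 1.54) was 0.22 without vehicle-titled array 3 and 0.19 with values under 50 set to 50. Creb3l3, at 49.0 in the vehicle-titled group, lay just outside the minimum, and Creb3l1, Creb3l2 and Creb3l4 did not reach it.

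Of the CRTC co-activators, which move to the nucleus when dephosphorylated, Crtc1 read 432, 589 and 775 against 382, 649 and 765 (0.019 ± 0.31). The arrays numbered 1 were far below the rest in both groups. Crtc3 read 116, 124 and 136 against 152, 132 and 123 (-0.11 ± 0.14), with pair differences of -0.39, -0.088 and 0.15. Crtc2 did not reach the minimum.

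CREB and CREM bind the palindrome TGACGTCA, the full cAMP response element, and its shorter core, TGACG or CGTCA on the other strand, which every palindrome contains. Both were searched in RefSeq promoters (build GRCm38.p6, 250 bases before to 50 after each start), which matched 43 of the 51 members in 86 windows. The palindrome was in at least 1 window of 2 members (4.65%), Creb5 and Prkar1a, against 2.03% of all 27025 genes. Counted by window, 20.9% of member windows and 20.8% of all windows held the core. Counted by gene the core was in 37.2% of members and 23.0% of all genes, but the members had 86 windows for 43 genes against 32851 for 27025. A list of textbook CREB targets had 18 genes kept, of which 13 were matched. All 13 held the core and 3 held the palindrome, Dusp1, Scg2 and Sst. Counted by window, 14 of 20 (70%) held the core. These genes were listed as known CREB targets, so their share describes the list and tests nothing. The 5 sequences follow, so that the element can be seen in a factor gene, a PKA subunit and known targets. They run 5′ to 3′ on the gene's strand with the palindrome in capitals. All but that of Prkar1a end at the base before the start. Another annotated start of Prkar1a lies within the 160 bases before the start used, so only a short stretch around the element is printed.
Creb5 (chr6:53287143-53287302, plus strand): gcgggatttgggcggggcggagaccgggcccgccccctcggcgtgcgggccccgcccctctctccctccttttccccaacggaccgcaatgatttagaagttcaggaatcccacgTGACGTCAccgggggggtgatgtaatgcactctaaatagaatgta
Prkar1a (chr11:109650889-109650918, plus strand): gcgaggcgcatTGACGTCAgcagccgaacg
Dusp1 (chr17:26508473-26508632, minus strand): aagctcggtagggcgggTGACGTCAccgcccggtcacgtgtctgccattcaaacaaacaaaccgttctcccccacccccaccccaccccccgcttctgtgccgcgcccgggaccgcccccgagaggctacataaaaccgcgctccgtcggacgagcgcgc
Scg2 (chr1:79440027-79440186, minus strand): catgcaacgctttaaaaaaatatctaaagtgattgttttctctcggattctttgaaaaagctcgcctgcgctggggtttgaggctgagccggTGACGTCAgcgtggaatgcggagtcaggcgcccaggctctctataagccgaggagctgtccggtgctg
Sst (chr16:23890845-23891004, minus strand): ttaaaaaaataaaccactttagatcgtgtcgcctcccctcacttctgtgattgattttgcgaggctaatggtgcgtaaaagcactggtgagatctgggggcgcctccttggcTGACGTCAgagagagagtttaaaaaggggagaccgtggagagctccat
The palindrome's first base lay 45 bases before the start used in Creb5, 49 in Prkar1a, 143 in Dusp1, 68 in Scg2 and 48 in Sst. A match describes the letters and shows no binding.

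The CREB target genes gave positive differences for 13 of 18 kept, with a median of 0.13, beside 47.8% of all genes positive. None passed the test, and none had an unadjusted p under 0.05 in limma, with or without the block. Groups without overlap were seen for 3 of 18, Dusp1, Junb and Ppargc1a, against 1.63% of all genes with the fluoxetine-titled arrays above. Dusp1, a phosphatase of MAP kinases, read 6162, 5019 and 4909 against 4389, 4682 and 4453 (0.24 ± 0.14). Fos, an immediate early transcription factor, read 7271, 8505 and 9838 against 7067, 7413 and 6710.4 (0.26 ± 0.15), where fluoxetine-titled array 1 fell inside the vehicle-titled range. Junb, its partner, gave 0.19 ± 0.14 and Ppargc1a, a co-activator of mitochondrial genes, 0.17 ± 0.12. Higher in all 3 pairs were 6 of 18 (Nr4a1, Per1, Dusp1, Fos, Junb and Ppargc1a), against 10.9% of all genes, and the neurotrophin Bdnf, with -0.16 ± 0.21, was lower in all 3, against 13.1%.

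Sst and Scg2, whose elements are shown above, gave -0.0046 ± 0.31 and 0.018 ± 0.17. Sst marks interneurons, and on this list Crem is also a member of the CREB family. The list medians were 0.080, -0.028 and 0.15 in pairs 1, 2 and 3.

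Of genes for G protein alpha subunits and the cAMP exporter, 1 of 8 was positive (list median -0.055), and 0 passed the test. The list holds both stimulatory and inhibitory alpha subunits, so its median gives no direction of input to the cyclases. Gnas, the stimulatory alpha subunit, read 21378, 25460.1 and 25487 against 25141, 29642 and 27446, lower in every pair with overlapping groups (-0.19 ± 0.14), and Gnao1 was lower in every pair as well (-0.15 ± 0.17). Of 10 receptors that act through the stimulatory G protein, 7 were positive (median 0.044). Gpr12 gave 0.23 ± 0.14 and Gpr3 -0.12 ± 0.13, each with 1 sign in every pair, and the serotonin receptors Htr7 and Htr4 gave 0.17 ± 0.14 and 0.065 ± 0.17. None of the receptors passed the test.

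Among cAMP effectors other than PKA, 4 of 5 were positive (median 0.054). Rapgef3 (EPAC1), an exchange factor that cAMP activates directly, read 599, 767 and 625 against 608, 545 and 359. Vehicle-titled array 3 was the lowest, and fluoxetine-titled array 1 lay just under vehicle-titled array 1. The difference was 0.42 ± 0.22 (pairs -0.022, 0.49 and 0.80; adjusted p = 1.00 in limma). Hcn2, a channel that cAMP gates, gave 0.14 ± 0.21. PKA inhibitors and proteins that PKA phosphorylates were positive for 3 of 7 (median -0.052), with Pkib at 0.20 ± 0.29 and Arpp19 at -0.12 ± 0.18. CREB relatives, co-activators and CRTC kinases were positive for 5 of 10 (median -0.0071), with Sik3 at 0.19 ± 0.25 and Atf2 at 0.066 ± 0.17. These lists had 0 genes past the adjusted threshold and 0 at an unadjusted p under 0.05, where the replicate block added Rapgef3.

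The members' signs differed by pair. In pair 1, 15 of 51 members (29.4%) were higher on the fluoxetine-titled array, in pair 2 18 (35.3%) and in pair 3 37 (72.5%), while all genes stood at 50.1%, 44.4% and 49.8%. Member medians were -0.08, -0.088 and 0.14 in pairs 1, 2 and 3. In pair 3 the medians were positive in every family, from 0.036 for the PKA subunits to 0.19 for the CREB and CREM factors. The differences of Creb5, Pde1c, Pde7a, Akap13 and Akap12 were each largest there.

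Marker levels of other cell types were also higher on the fluoxetine-titled array in pair 3. Astrocyte markers (15 of 15 kept, 14 positive) had medians of -0.055, -0.017 and 0.71 in pairs 1 to 3, microglial markers (7 of 11 kept, 6 positive) -0.22, 0.033 and 0.67, oligodendrocyte markers (10 of 11 kept, 8 positive) -0.11, -0.083 and 0.54 and interneuron markers (13 of 14 kept, 8 positive) -0.097, -0.075 and 0.40. Vessel markers (10 of 15 kept, 9 positive) had 0.20, 0.43 and 0.25, and layer 5 markers (3 of 14 positive) 0.038, -0.12 and -0.17. Of the vessel markers 5 were higher in all 3 pairs and 2, Acta2 and Abcb1a, had groups without overlap. Acta2, the actin of smooth muscle, read 538, 399 and 519.9 against 370.2, 272 and 269 (0.68 ± 0.19, more than any member). Without the replicate block it was the only gene of these marker lists at an unadjusted p under 0.05 in limma. With the block, the vessel markers Abcb1a and Pdgfrb were also past it and higher, and the interneuron marker Pvalb was past it and lower. Kcnj13, from a list of blood and choroid plexus markers (2 of 5 kept, 1 positive), was past it and higher. Its fluoxetine-titled and vehicle-titled means, 66.2 and 54.3, lay close to the intensity minimum. Clic6, the other gene kept from that list, gave -0.15 ± 0.20, and Ttr, Folr1 and Alas2 did not reach the minimum. The summed level of the astrocyte markers ran from 53104 to 62328 on the fluoxetine-titled arrays and 38571 to 64521 on the vehicle-titled arrays. That of the microglial markers ran from 2046 to 2912 on the fluoxetine-titled arrays and 1248 to 3259 on the vehicle-titled arrays, with the defining genes P2ry12, Tmem119, Trem2 and Tyrobp below the intensity minimum. Vessel markers summed to 16228 to 20860.4 on the fluoxetine-titled arrays and 12816 to 19979 on the vehicle-titled arrays, with Pecam1, Flt1, Tek, Kdr and Tagln below it. Oligodendrocyte markers summed to 29327 to 36386 on the fluoxetine-titled arrays and 21289 to 39459 on the vehicle-titled arrays, and interneuron markers to 36698 to 41429 on the fluoxetine-titled arrays and 33105 to 42149.5 on the vehicle-titled arrays. For each of these lists the lowest vehicle-titled sum was that of vehicle-titled array 3, and it lay below every fluoxetine-titled sum. The part of these markers in the members' differences was not tested. Without pair 3, Pde7a gave 0.41, Akap13 0.37, Akap12 0.19, Akap2 0.25 and Pde3b 0.33.

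**Figure D3:**
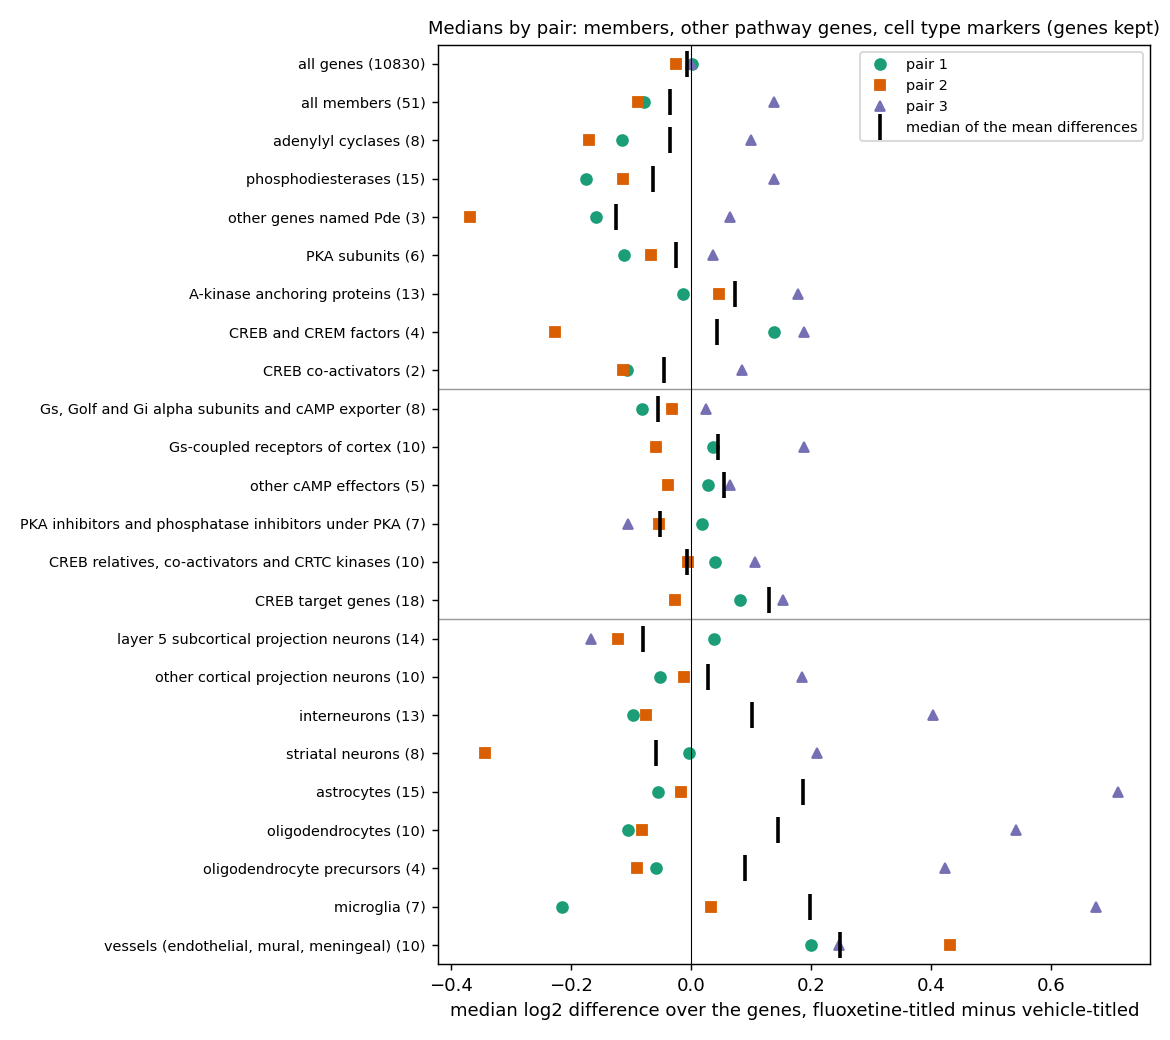
Median log2 difference (fluoxetine-titled minus vehicle-titled) within pairs 1, 2 and 3 (circle, square, triangle) and the median of the mean differences (black tick) for all genes, the members and their families, other pathway lists and marker lists, with the number of genes kept in brackets. In pair 3 the astrocyte markers stand at 0.71, the members at 0.14 and the layer 5 markers at -0.17.

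For many members the replicate number separated the arrays more than the group did. The median absolute group difference over members was 0.11, and the median absolute log2 difference between the arrays numbered 1 and the other 4 was 0.24 (all genes 0.082 and 0.22). Both arrays numbered 1 were below the other 4 for 12 members (23.5%, against 19.9% of all genes) and above them for 9 (17.6%, against 24.4%). Shares of this size were thus common on the whole array.

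Pde4dip showed it most. It read 1925, 3799 and 4935 on the fluoxetine-titled and 2149, 3996 and 4720.0 on the vehicle-titled arrays, so the arrays numbered 1 minus the rest gave -1.09 on the log2 scale. A second Pde4dip probe set read 36.4, 510.1 and 497 against 42.2, 306 and 418, which falls below the intensity minimum on both arrays numbered 1. Pde1a read 911, 1888 and 1642 against 946, 2124 and 1742 (arrays numbered 1 minus the others -0.99), and Pde1b 1773, 2740.1 and 2433 against 1863, 3424 and 2252 (-0.56). For Crtc1 the same difference was -0.76 and for Creb1 -0.61. On the high side stood Pde7b (0.62), Crem (0.58), Adcy7 (0.53) and Pde10a (0.47). Enzymes and factors of the same family therefore lay on both sides.

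**Figure D4:**
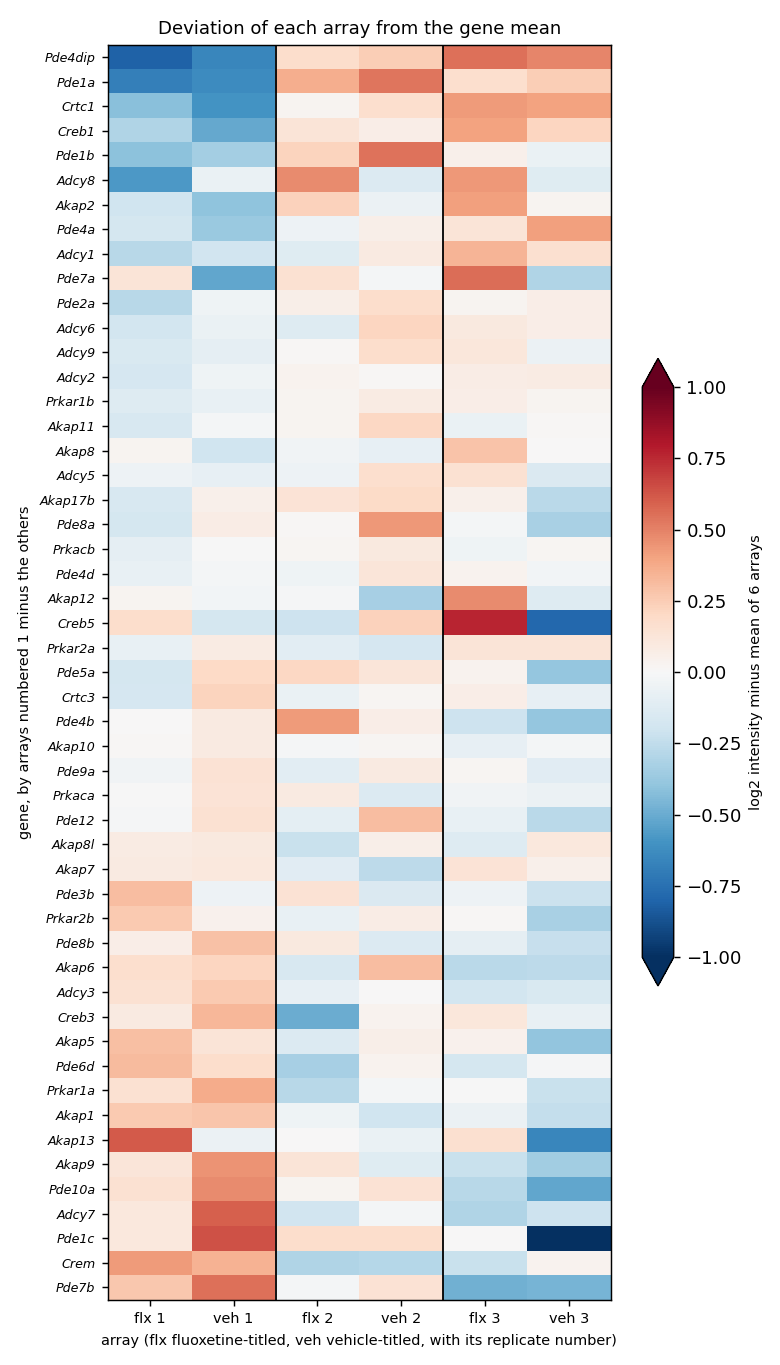
Log2 intensity of each member on each array minus its mean over the 6 arrays (colour scale, red higher and blue lower), with genes in rows ordered by the arrays numbered 1 minus the others and the arrays in columns by replicate number. Both columns numbered 1 are low for Pde4dip, Pde1a and Crtc1 and high for Crem and Pde7b.

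Probe sets of the same gene did not always share this pattern. Pde10a was high on the arrays numbered 1 with its chosen probe set, 2092, 1915 and 1549 against 2614, 2073 and 1309, and low with another, 355, 451 and 389 against 319, 649.5 and 397 (-0.45). Akap5 was likewise high with the chosen one (0.32) and low with a second (-0.58), and Akap9 gave 0.42, -1.59 and -0.73. Crtc1 was low with both of its probe sets (-0.76 and -0.77). Over the 27 members with further probe sets, 27 of 45 further ones (60.0%) had the chosen one's sign in this comparison, against 61.3% of 6696 across all genes.

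The group difference had a similar share. Of the 45 further probe sets, 27 (60.0%) had the same sign as the chosen one, against 58.4% across all genes, and the other 24 members had 1 probe set kept. Creb1, Creb3 and Akap8 had 1 sign in all their probe sets, Pde7a and Akap2 did not, and Akap12, Akap13, Pde3b and Creb5 had no second one.

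**Figure D5:**
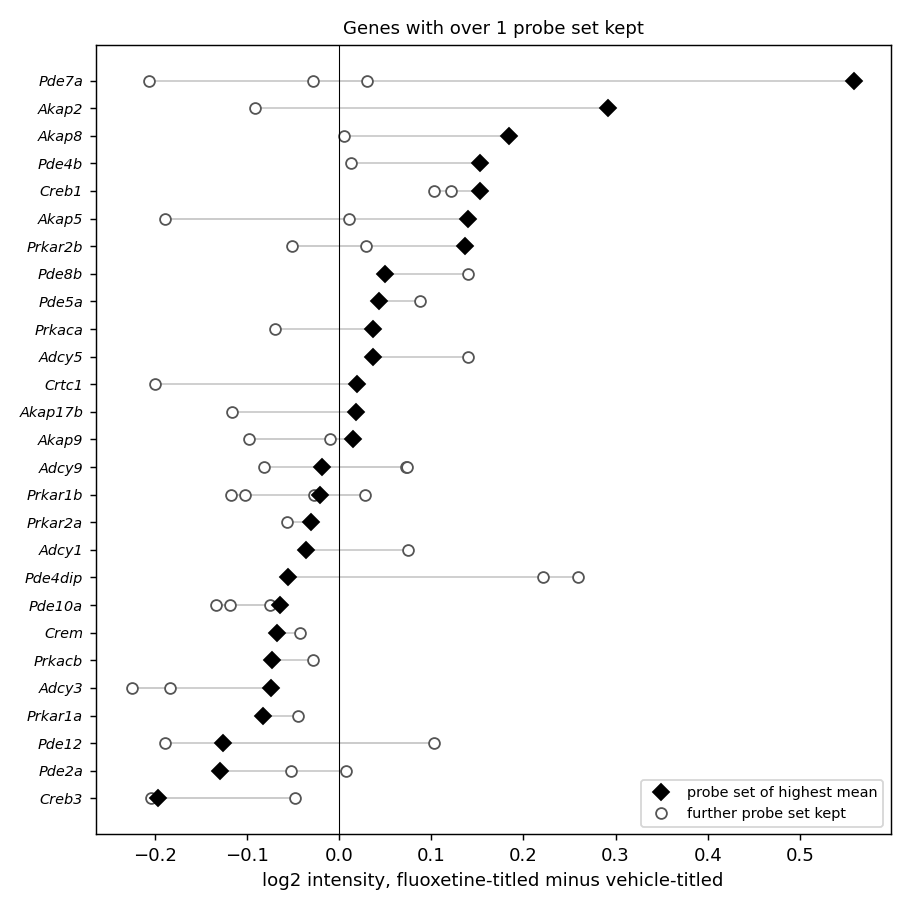
Log2 difference (fluoxetine-titled minus vehicle-titled) of the probe set of highest mean (filled diamond) and of the further probe sets kept (open circles) for the 27 members with more than 1. For Pde7a the diamond is at 0.56 and the circles run from -0.21 to 0.03, while the circles of Creb1 lie beside its diamond.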

How the data were processed

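Affymetrix arrays were hybridised with TRAP RNA, 15 ng amplified in 2 cycles and labelled with biotin per the labels' protocols. The deposited table gives an intensity for every probe set on every array, on a linear scale. The authors computed these with GCRMA, as the submitters' processing notes state. GCRMA corrects background from probe sequence and normalizes between arrays, so low values depend on its background model, and its version is not given in the sources used here. Of 45101 probe sets, 64 controls were left out and 19073 reached a group mean of 50. The annotation gave 34945 probe sets 1 symbol and 932 several (left unnamed), and 9160 were not listed or had none. Of the 51 chosen probe sets, 4 carry the ending _s_at and 3 the ending _x_at, which mark sequence that other transcripts can share. Those of Adcy7, Creb3, Pde2a and Prkar2b end in _s_at, and those of Pde5a, Prkaca and Prkar1b end in _x_at.

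The two-sided test was limma's (version 3.58.1 under R 4.3.3; lmFit, then eBayes) on log2 intensity, and p-values were adjusted by the Benjamini-Hochberg method across the 19073 probe sets. The code was tested on simulated data. The titles give replicate numbers but state no pairing, and arrays of equal number were treated as pairs. Over all kept probe sets, equal-numbered arrays correlated at 0.74, 0.60 and 0.50 in their deviations, and other cross-group arrays at -0.59 to 0.26. Fits with this block, other filters, quantile normalization, an intensity trend, all probe sets averaged and each array or pair left out were alternatives. The labels do not say what a number stands for, nor whether the purifications came from separate animals, so p-values measure the spread between these samples. Arrays correlated between 0.992 and 0.997, and no pair looked like 1 library.

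Values per array are given for all cyclases, PKA subunits, CREB, CREM and CRTC genes. Among phosphodiesterases and AKAPs they are given for those at an unadjusted p under 0.05, those without overlap between groups, those with 1 sign in all pairs and a log2 difference of at least 0.2 in size, and the 3 with the largest. Others shown per array, and all those named from the other lists, were chosen after their values were seen. The members and the gene lists were chosen with earlier results of these data known. The probe set table that the design text recommends was not used here.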

Additional observations from a re-analysis of the deposited data

How the results depend on the processing

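No alternative brought any probe set to an adjusted p under 0.05. With the replicate number as a block, genes at an unadjusted p under 0.05 numbered 369 in place of 64 and members 5 in place of 1, and the block brought no adjusted call. With no intensity filter, 344 genes reached that p, 16 members were lower in all 3 pairs and 5 had groups without overlap. The member counts then run over 68 genes in place of 51, and the cause of the gene count was not tested. The other settings kept these counts within 1.5 times. Leaving out 1 array or pair gave 23 to 234 genes and 0 to 3 members at an unadjusted p under 0.05. It gave 7 to 16 members higher and 11 to 26 lower in all pairs left, and 5 to 14 without overlap, counts that fewer arrays reach more easily by construction. Between 50 and 52 members were kept. Family medians then ran from -0.098 to 0.026 for all members, -0.11 to 0.045 for cyclases, -0.15 to 0.088 for phosphodiesterases, -0.17 to -0.0039 for the other genes named Pde, -0.065 to 0.043 for PKA subunits, -0.023 to 0.15 for AKAPs, -0.14 to 0.097 for CREB and CREM and -0.18 to 0.089 for the co-activators. Of 26 members given per array by the rule, 11 kept their sign in every setting in which they were kept. They were Pde7a, Pde3b, Akap13, Akap12, Akap2, Adcy6, Adcy7, Adcy8, Creb5, Prkacb and Prkar2b. For Pde7a, Akap13 and Akap12, whose groups do not overlap, leaving out an array or pair cannot turn the sign. Pde3b, Akap2, Adcy7 and Prkacb had 1 sign in all 3 pairs, so leaving out a pair cannot turn theirs. Signs turned in 39 of 228 comparisons with an array or pair left out and in 6 of 179 others.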
